A study of Mus musculus with 6 samples.

Results

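The aminoacyl-tRNA synthetases are the enzymes that load each tRNA with its amino acid, and this account follows their genes in lung group 2 innate lymphoid cells (ILC2s) with and without the mechanically gated cation channel Piezo1. Members were taken by gene symbol, as every gene named by 1 amino acid letter followed by ars, with or without a closing 1 or 2, together with Eprs, Farsa and Farsb. The pattern matched 37 of the 18057 genes in the table, of which 20 encode cytosolic and 17 encode mitochondrial enzymes, and all 37 passed the filter on low counts. RNA was sequenced from ILC2s sorted from mouse lungs, in 3 libraries of each genotype. The Piezo1_KO libraries carry the genotype label Il7rcrePiezo1flx, that is, a floxed Piezo1 allele with the Cre recombinase driven by Il7r, the gene of the interleukin-7 receptor, which lymphoid cells other than ILC2s also express. The control libraries carry the label Il7rcre, the driver without the floxed allele, although their titles call them WT. Mice of both groups were given 1 µg of IL-33, an alarmin that activates ILC2s, intranasally 3 times, and their sorted cells then spent 24 h in culture with 10 ng/mL of each of the cytokines IL-2 and IL-7. The number of Cre alleles and the age of the mice are not given in the labels. Whether the libraries of a group stem from different animals is not in the labels, so a p-value here reflects library-to-library spread that may be technical.

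Each synthetase recognises its own tRNAs and amino acid, and the charged tRNA then delivers the amino acid to the ribosome. Mammalian cells use separate nuclear genes for most cytosolic and mitochondrial enzymes, and the mitochondrial enzymes are imported to translate the few messages encoded by mitochondrial DNA. Gars and Kars each make both forms, and no separate mitochondrial glutaminyl enzyme is used, because mitochondria make glutaminyl-tRNA from glutamyl-tRNA with an amidotransferase. Several cytosolic enzymes sit together on scaffold proteins in the multisynthetase complex. Many cytosolic synthetase genes are induced through the transcription factor ATF4 when amino acids run short or the endoplasmic reticulum is stressed, and lymphocytes increase protein synthesis when they are activated.

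None of the 37 synthetase genes differed between Piezo1_KO and control ILC2s at an adjusted p of 0.05. The lowest adjusted p was 0.326, for the cysteinyl enzyme Cars (edgeR quasi-likelihood test, Benjamini-Hochberg adjustment over all 14149 genes tested). In the same fit 1.51% of all genes tested passed that threshold, 1.00% higher and 0.509% lower in Piezo1_KO. At an unadjusted p under 0.05 there were 3 members, Cars, Tars2 and Ears2, which is 8.11% of the 37 beside 13.2% of all genes. DESeq2 and limma-voom with sample quality weights also called 0 members after adjustment, and at an unadjusted p under 0.05 they had 3 members (8.11%, beside 12.9% of all genes with DESeq2) and 7 members (18.9%, beside 18.5% of all genes with limma-voom). The changes were small as well as uncalled, with a median SE of 0.0994 on the log2 scale, beside 0.170 for all genes tested. For 32 of the 37 members the 95% interval of the fold change lay within 1.5-fold in either direction, beside 6762 of the 14149 genes. The exceptions were the mitochondrial Ears2, Pars2, Vars2, Aars2 and Wars2, whose intervals reached from a log2 fold change of −0.78 for Pars2 at the low end to 0.82 for Wars2 at the high end. The median log2 fold change was −0.03 for the 20 cytosolic members and −0.21 for the 17 mitochondrial ones, beside 0.02 for all genes tested. The fold change was negative for 12 of the 20 cytosolic and 14 of the 17 mitochondrial members, beside 47.0% of all genes, and over the alternative settings for 10 to 15 cytosolic and 12 to 14 mitochondrial members.

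**Figure D1:**
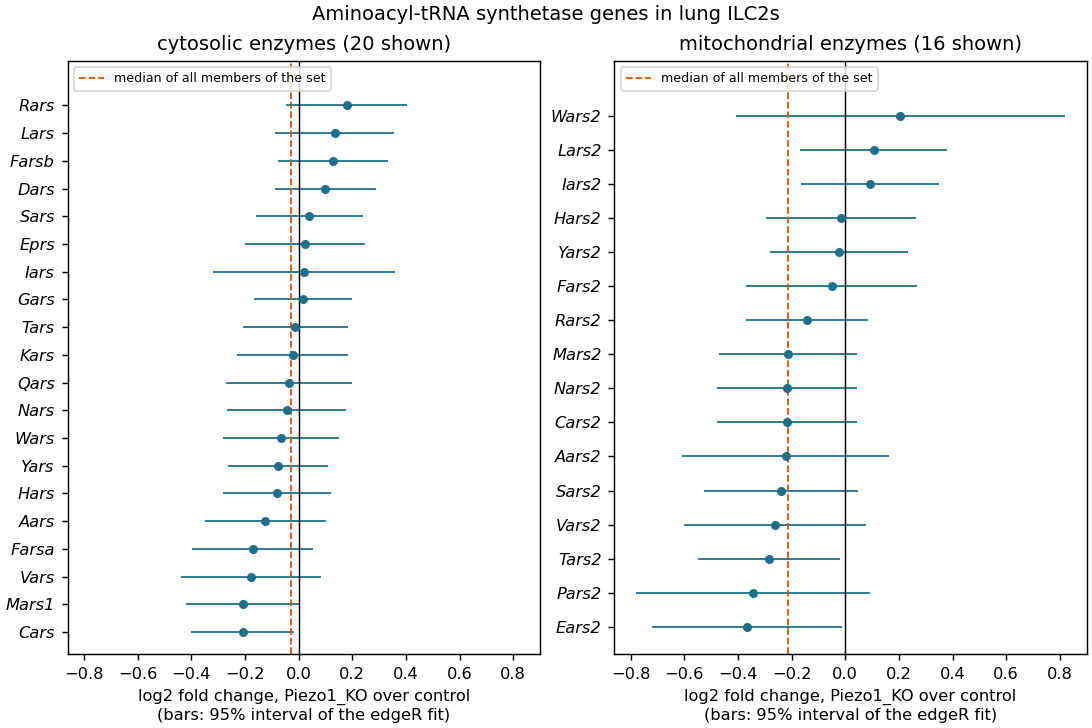
Log2 fold change of each synthetase gene, Piezo1_KO over control (x axis), with its 95% interval from the edgeR fit, for 20 cytosolic (left) and 16 mitochondrial (right) members; the dashed line is the median of all members of the set and the solid line marks no change. The cytosolic points lie between −0.21 and 0.18 around a median of −0.03, and the mitochondrial points lie between −0.37 and 0.21 around a median of −0.21.

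Library totals lay between 23549849 and 29733378 estimated counts in Piezo1_KO and between 13059046 and 33459904 in control. The lowest count of a member in any library was 890 for a cytosolic member (Qars) and 43 for a mitochondrial one (Wars2). Piezo1 itself had 150.0, 109 and 122 CPM, TMM-scaled counts relative to library size, in Piezo1_KO replicates 1, 2 and 3, against 247, 278 and 160.0 CPM in control replicates 1, 2 and 3. Its groups did not overlap, but the log2 fold change of −0.85 ± 0.21 (SE) did not pass the threshold (adjusted p = 0.112; 0.00189 with DESeq2 and 0.0157 with limma-voom), and the count for the gene includes exons outside the floxed part. Of 16 ILC2 markers 15 were listed, and their summed level was 13616 to 14725 CPM in Piezo1_KO libraries and 12295 to 12853 CPM in control libraries. The sum joins markers that moved in opposite directions: Il17rb rose (log2 fold change 0.74, adjusted p = 0.0136), while Icos (−0.61, adjusted p = 0.0168) and Il7r, the gene that drives the Cre, fell (−1.03, adjusted p = 0.00722), and 7 of the 15 fold changes were negative. Gata3, the lineage factor of ILC2s, had 789, 703 and 718 CPM in Piezo1_KO and 969.7, 1035 and 954 CPM in control, without overlap and with an adjusted p of 0.0612. Markers of other cells were far lower, and for several types the groups did not overlap. The summed B cell markers (3 of 6 listed) were at 80.2 to 104 CPM in Piezo1_KO and 34.4 to 40.3 CPM in control, and the erythroid markers (3 of 6 listed) at 26.7 to 31.3 CPM in Piezo1_KO and 3.70 to 5.25 CPM in control. The T cell markers (5 of 8 listed) were at 21.0 to 27.1 CPM in Piezo1_KO and 29.6 to 38.5 CPM in control, and the granulocyte and mast cell markers (5 of 9 listed) at 4.02 to 5.49 CPM in Piezo1_KO and 8.42 to 12.8 CPM in control. The epithelial, endothelial and stromal markers (4 of 11 listed) were at 83.4 to 85.4 CPM in Piezo1_KO and 51.7 to 60.7 CPM in control. Most of that sum was Pecam1, with 71.4, 65.3 and 65.8 CPM in Piezo1_KO and 40.8, 46.3 and 42.1 CPM in control. Of the 3 tested markers of that list, 2 had positive fold changes and 1 a negative one (log2 fold change −2.79). The NK cell and ILC1 markers (2 of 6 listed) had 2.05 to 4.84 CPM in Piezo1_KO and 2.70 to 4.68 CPM in control, and the macrophage and dendritic cell markers (6 of 9 listed) 4.27 to 7.01 CPM in Piezo1_KO and 4.98 to 10.6 CPM in control. Tested markers of other cells that passed were Ighm, Hba-a1, Hba-a2 and Pecam1, which rose, and Cma1 and Tbx21, which fell. Tbx21, a factor of NK cells and ILC1s, had 0 CPM in all 3 Piezo1_KO libraries and 1.06 CPM or more in each control library. The other of the 2 tested NK cell and ILC1 markers went the other way (log2 fold change 0.72), with overlapping groups, and did not pass. The defining genes Cd4, Cd8a, Ms4a1 and Sftpc were not listed at all. The part of these cells in the values of the synthetase genes was not tested, and in bulk RNA fewer cells of a type and less RNA per cell cannot be told apart.

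Several cytosolic synthetase genes are known targets of ATF4, which binds DNA with C/EBP partners at elements whose core reads TGATGNAA, so this motif was searched on both strands in windows from 250 bases before to 50 bases after each gene's start (RefSeq, GRCm38.p6). Of the 37 members 27 had such a window, and 5 of these held the motif, which is 18.5% beside 4.51% of the 27025 genes with a window. All 5 were cytosolic: Aars, Gars, Iars, Tars and Yars, out of 13 cytosolic members with a window, while 0 of 14 mitochondrial members held it. In a list of 33 genes of the ATF4 and amino acid response, 8 of the 28 with a window (28.6%) held it, among them the asparagine synthetase gene Asns. With the motif in 4.51% of all genes, 14 mitochondrial members with a window are too few to tell 0 matches from that share. The 60 bases around the first match of each gene are shown because matches were found in cytosolic members. They are written 5′ to 3′ on the strand of the gene, with the match in capitals, and TTNCATCA is the same motif read on the other strand. Aars holds a second match in its window, outside the stretch printed. A match describes the letters of the window and does not show a bound site.
Aars (alanyl), chr8:111033704-111033763, plus strand: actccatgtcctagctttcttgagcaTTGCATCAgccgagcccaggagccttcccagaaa
Gars (glycyl), chr6:55037945-55038004, plus strand: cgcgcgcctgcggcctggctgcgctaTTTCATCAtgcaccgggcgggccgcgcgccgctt
Iars (isoleucyl), chr13:49682100-49682159, plus strand: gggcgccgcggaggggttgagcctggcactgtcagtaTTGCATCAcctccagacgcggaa
Tars (threonyl), chr15:11399640-11399699, minus strand: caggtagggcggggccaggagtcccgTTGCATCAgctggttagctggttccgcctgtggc
Yars (tyrosyl), chr4:129189873-129189932, plus strand: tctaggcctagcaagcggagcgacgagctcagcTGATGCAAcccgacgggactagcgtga

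None of the 5 genes with the motif passed the test between genotypes. Their log2 fold changes were −0.12 for Aars, 0.02 for Gars, 0.02 for Iars, −0.01 for Tars and −0.08 for Yars, with adjusted p of 0.654 or more in the edgeR quasi-likelihood fit. Iars, which charges isoleucine, had 376, 338 and 365 CPM in Piezo1_KO replicates 1 to 3, against 379, 409.6 and 274 CPM in control replicates 1 to 3. Its groups overlapped, since control replicates 2 and 3 were the highest and the lowest of the 6 libraries. Of the ATF4 and amino acid response list, 33 of 33 genes were tested, 0 rose and 0 fell, and the median log2 fold change was −0.08. At an unadjusted p under 0.05 the list had 9 of its 33 genes (27.3%, beside 13.2% of all genes). There were 3 without Piezo1_KO replicate 2 and 5 without Piezo1_KO replicate 3, beside 7.47% and 8.59% of all genes. With the replicate block there were 4, beside 9.53% of all genes. There were 10 with limma-voom and 10 without control replicate 3, beside 18.5% and 19.3% of all genes. Its median was −0.0092 without Piezo1_KO replicate 3. The smallest p in it belonged to Vldlr, a lipoprotein receptor gene, with 6.26, 7.05 and 5.30 CPM in Piezo1_KO and 2.57, 3.52 and 3.37 CPM in control. It was followed by Chac1, which encodes a glutathione-degrading enzyme, with 22.3, 22.5 and 19.7 CPM in Piezo1_KO and 26.5, 35.0 and 29.0 CPM in control. Neither pair of groups overlapped, in opposite directions, and neither gene passed the threshold (log2 fold change 0.97 ± 0.23, adjusted p = 0.109 for Vldlr and −0.49 ± 0.13, adjusted p = 0.149 for Chac1, ± SE, edgeR quasi-likelihood fit). Vldlr passed with DESeq2 (adjusted p = 0.0193) and when protein-coding genes alone were fitted (adjusted p = 0.0367).

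Among the cytosolic enzymes, the lowest p values belonged to the enzymes for cysteine and methionine, both lower in each Piezo1_KO library than in each control library. Cars (chr7:143557230-143600090, minus strand, mm10) had 147, 154 and 159 CPM in Piezo1_KO, against 175, 173 and 183 CPM in control. Mars1, the methionyl enzyme (chr10:127296221-127311786, minus strand), had 280.4, 253 and 255 CPM in Piezo1_KO, against 292, 327 and 293 CPM in control. For both genes the highest Piezo1_KO library lay below the lowest control library. The log2 fold change was −0.21 for each, with an SE of 0.08 and an adjusted p of 0.326 for Cars and an SE of 0.09 and an adjusted p of 0.385 for Mars1. Mars1 shares 2.3% of its exon length with the stress gene Ddit3, and whether the counting told strands apart is not given.

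The arginyl and leucyl enzymes of the multisynthetase complex had higher means in Piezo1_KO, with overlapping groups. Rars had 129.8, 143 and 135 CPM in Piezo1_KO, against 132, 118 and 110.4 CPM in control. Lars had 272, 257 and 258 CPM in Piezo1_KO, against 264, 231 and 221 CPM in control. In both genes it was control replicate 1 that reached into the Piezo1_KO range. The log2 fold changes were 0.18 ± 0.10 (adjusted p = 0.503) for Rars and 0.14 ± 0.10 (adjusted p = 0.612) for Lars (± SE). Dars, the aspartyl enzyme and also a complex member, had 152, 156 and 158 CPM in Piezo1_KO, against 149.8, 139 and 146 CPM in control. Its groups did not overlap, with a log2 fold change of 0.10 and an adjusted p of 0.675. The complex also includes Eprs, Iars, Kars, Qars and Mars1, which was lower in every Piezo1_KO library (log2 fold change −0.21). Across the 8 complex members the median log2 fold change was 0.02 and 5 were positive (−0.0096 and 3 positive with library totals, −0.018 and 3 positive with limma-voom). Leaving out a library moved that median to −0.0064 without Piezo1_KO replicate 1, −0.013 without control replicate 3 and 0.086 without control replicate 1. Across the 12 cytosolic members outside the complex it was −0.07 and 9 were negative. Of the 3 scaffold genes of the complex, Aimp1, Aimp2 and Eef1e1, 0 passed the test. Aimp1 stood at 0.13 ± 0.17 (adjusted p = 0.813) and Aimp2 at −0.05 ± 0.11 (adjusted p = 0.897) on the log2 scale.

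Vars and Aars, for valine and alanine, were lower on average in Piezo1_KO but not beyond the spread between libraries. Vars had 549, 462 and 444 CPM in Piezo1_KO, against 524, 607 and 513 CPM in control. Aars had 487, 440.2 and 434 CPM in Piezo1_KO, against 521, 517 and 445 CPM in control. For Vars, Piezo1_KO replicate 1 lay above 2 of the control libraries, and for Aars it lay above control replicate 3. Their log2 fold changes were −0.18 ± 0.11 (adjusted p = 0.570) and −0.12 ± 0.10 (adjusted p = 0.654). Of the exon length of Aars, 23.1% also belongs to Exosc6, a gene on the same strand that is not analysed here.

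The phenylalanyl enzyme is built from 2 kinds of subunit, and its genes differed in the direction of their means. Farsb, the beta subunit, had 160.4, 175 and 170.2 CPM in Piezo1_KO, against 159.7, 144 and 159 CPM in control. Farsa, the alpha subunit, had 110.2, 112 and 103 CPM in Piezo1_KO, against 112, 134 and 120.5 CPM in control. The Farsb groups were separated by a narrow gap, with every Piezo1_KO library higher, while for Farsa Piezo1_KO replicate 2 reached into the control range. The log2 fold changes were 0.13 ± 0.09 (adjusted p = 0.598) for Farsb and −0.17 ± 0.10 (adjusted p = 0.522) for Farsa. Per kilobase of exon, the ratio of Farsb to Farsa was 1.21, 1.29 and 1.37 in Piezo1_KO and 1.18, 0.890 and 1.09 in control. Its mean was 1.29 ± 0.0785 in Piezo1_KO and 1.06 ± 0.150 in control (SD, n = 3 each). The ratio was higher in all 3 Piezo1_KO libraries, and the exact two-sided permutation test gave p = 0.1, the smallest p that 3 libraries against 3 allow. This ratio was chosen after its values had been seen. Groups that do not overlap give this p whatever their distance, so the test adds nothing to their separation. Of the exon length of Farsb, 11.3% is shared with Sgpp2.

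**Figure D2:**
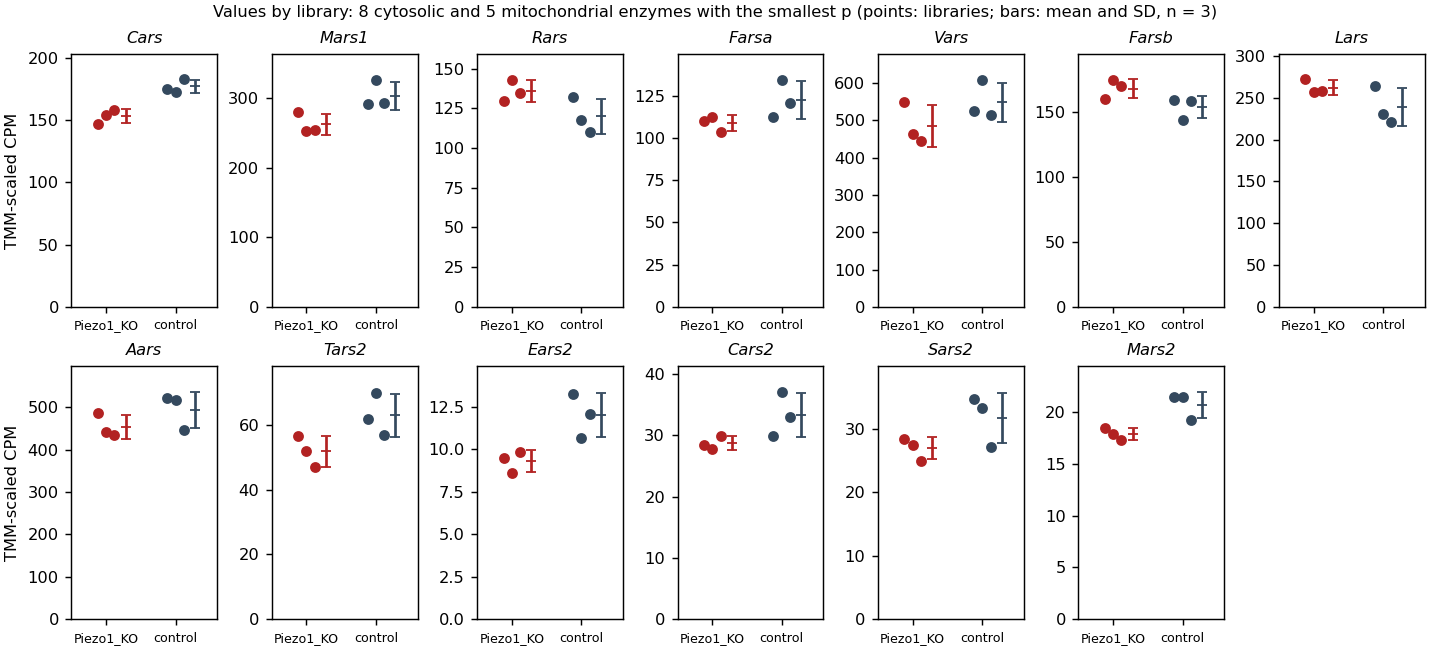
TMM-scaled CPM (y axis, from 0) of 8 cytosolic and 5 mitochondrial members with the smallest p, in the 3 Piezo1_KO and 3 control libraries (points), with mean and SD beside them. Cars, Mars1, Tars2, Ears2, Cars2 and Mars2 are lower and Farsb is higher in every Piezo1_KO library, and the groups of the other 6 genes overlap.

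The mitochondrial enzymes mostly had lower means in Piezo1_KO. The groups did not overlap for 6 of the 17, all lower in Piezo1_KO, and for 4 of the 20 cytosolic members, 2 lower and 2 higher. Together that is 10 of 37 members without overlap, 8 lower and 2 higher, where 20.6% of all genes did not overlap, 10.5% lower and 10.1% higher in Piezo1_KO. The 2 higher ones were Farsb and Dars. The mitochondrial ones included Tars2, Ears2, Cars2, Mars2 and Nars2. Of the 17, the positive fold changes belonged to Lars2, Iars2 and Wars2. Iars2 shares 30.5% of its exon length with Rab3gap2, a counted gene on the other strand, and whether the counting told strands apart is not given.

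Tars2, the threonyl enzyme (chr3:95739976-95760206, minus strand), had 56.6, 51.9 and 46.9 CPM in Piezo1_KO, against 62.0, 70.0 and 57.0 CPM in control. Ears2, the glutamyl enzyme that also serves the tRNAs for glutamine (chr7:122037213-122067263, minus strand), had 9.47, 8.60 and 9.87 CPM in Piezo1_KO, against 13.3, 10.7 and 12.1 CPM in control. Both genes were lower in all 3 Piezo1_KO libraries, by a margin that was narrow for Tars2, where Piezo1_KO replicate 1 came close to control replicate 3. The log2 fold change was −0.28 ± 0.12 (95% interval −0.55 to −0.02, adjusted p = 0.341) for Tars2 and −0.37 ± 0.15 (95% interval −0.72 to −0.01, adjusted p = 0.364) for Ears2.

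Mars2, the methionyl enzyme, had 18.5, 17.9 and 17.3 CPM in Piezo1_KO, against 21.4, 21.5 and 19.3 CPM in control. It was lower in every Piezo1_KO library, with a log2 fold change of −0.21 ± 0.11 and an adjusted p of 0.480. Cars2, the cysteinyl enzyme, had 28.4, 27.8 and 29.98 CPM in Piezo1_KO, against 29.98, 37.1 and 33.0 CPM in control. Its highest Piezo1_KO library and its lowest control library were equal to within rounding (log2 fold change −0.22 ± 0.11, adjusted p = 0.474). Sars2, the seryl enzyme, had 28.3, 27.4 and 24.9 CPM in Piezo1_KO, against 34.7, 33.2 and 27.1 CPM in control. There control replicate 3 lay below 2 of the Piezo1_KO libraries (log2 fold change −0.24 ± 0.12, adjusted p = 0.478).

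Synthetases fall into 2 unrelated structural classes, and Eprs, which joins an enzyme of each, is left out here. The median log2 fold change was −0.07 for the 9 cytosolic members of class I and −0.02 for the 10 of class II. For mitochondrial members it was −0.14 for the 9 of class I, 6 of them negative, and −0.22 for the 8 of class II, all 8 negative. Beside this, 47.0% of all genes were negative. Of the 8, Hars2 (−0.02) and Fars2 (−0.05) turned positive under some alternatives.

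Set against its cytosolic counterpart for the same amino acid, the mitochondrial member had the lower fold change in 12 of 17 pairs, with a median difference of −0.08 on the log2 scale. The pairs that parted most in that direction were those for proline and glutamate, where Eprs, a single gene for both cytosolic activities, stood at 0.02 and Pars2 and Ears2 at −0.34 and −0.37. For cysteine and methionine the 2 enzymes of a pair had nearly the same fold change, −0.21 and −0.22 for Cars and Cars2 and −0.21 for both Mars1 and Mars2. Fars2 (−0.05) was set against Farsa (−0.17) and so is not among the 12, but it lay below Farsb (0.13). Eprs enters both the proline and the glutamate pair, so the 17 pairs are not all separate. No difference within a pair was tested.

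**Figure D3:**
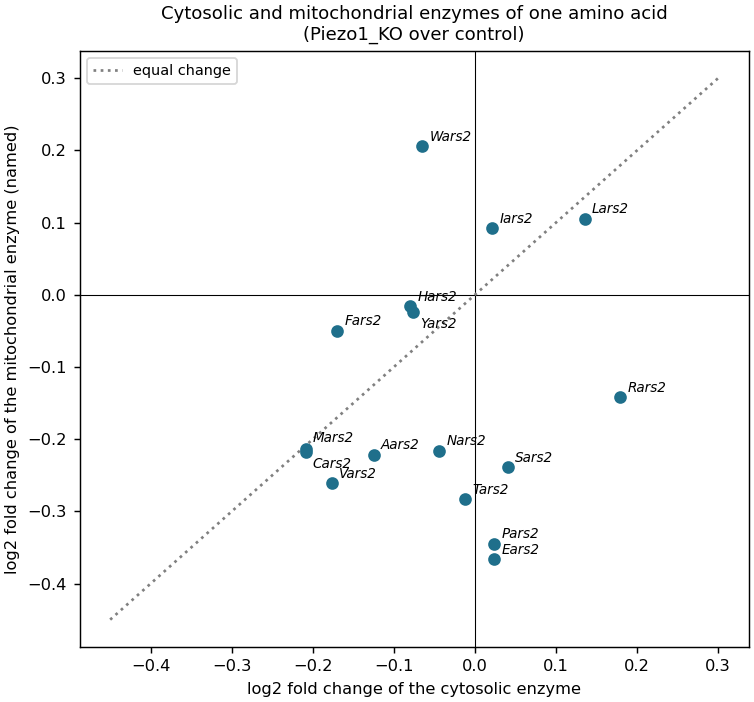
Log2 fold change, Piezo1_KO over control, of the mitochondrial enzyme (y axis, named) against that of the cytosolic enzyme for the same amino acid (x axis), 16 pairs; Pars2 and Ears2 share the cytosolic Eprs, and Fars2 is set against Farsa. The dotted line marks equal change, and 11 of the 16 points lie below it.

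The summed level of the 20 cytosolic members was 5538, 5366 and 5286 CPM in Piezo1_KO, against 5639, 5745 and 5248 CPM in control. The groups overlapped, with means of 5396 ± 129 CPM in Piezo1_KO and 5544 ± 262 CPM in control (SD, n = 3 each). The summed level of all 17 mitochondrial members was 2286, 2602 and 2454 CPM in Piezo1_KO, against 2210, 2205 and 2637 CPM in control. These groups overlapped too, and the mean was higher in Piezo1_KO, at 2447 ± 158 CPM beside 2351 ± 248 CPM in control (SD, n = 3 each). Lars2 made up 76.5% to 82.9% of that sum in each library, so the sum is also given without it. The other 16 mitochondrial members together had 459, 445 and 429 CPM in Piezo1_KO, against 484, 518 and 463 CPM in control. Their groups did not overlap, although Piezo1_KO replicate 1 and control replicate 3 lay close together, and the means were 444 ± 15.2 CPM in Piezo1_KO and 488 ± 27.7 CPM in control (SD, n = 3 each). The ratio of the cytosolic sum to the mitochondrial sum without Lars2 was 12.1, 12.1 and 12.3 in Piezo1_KO and 11.6, 11.1 and 11.3 in control. It was higher in every Piezo1_KO library, and it was formed after the values had been seen.

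**Figure D4:**
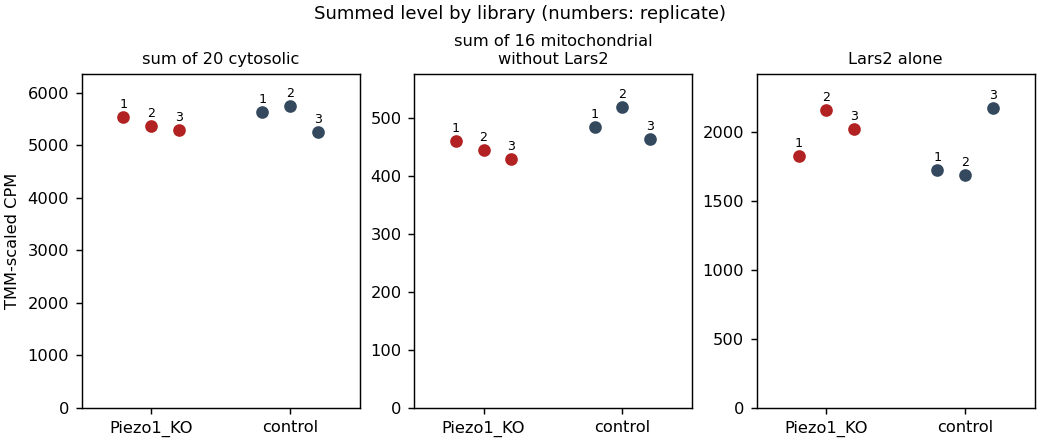
TMM-scaled CPM (y axis, from 0) in each Piezo1_KO and control library (points, numbered by replicate), summed over the 20 cytosolic members (left) and the 16 mitochondrial members without Lars2 (middle), and for Lars2 alone (right). The Piezo1_KO and control libraries overlap in the left and right panels and are apart, by a small gap, in the middle one.

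Levels were compared between genes as CPM per kilobase of annotated protein-coding exon. By that measure the cytosolic members had a median of 77.4, from 26.2 for Qars to 213 for Gars, and the mitochondrial members ran from 1.14 for Wars2 to 496 for Lars2. The cytosolic enzyme was higher than the mitochondrial one in every library for 16 of 17 amino acids. The ratio of their levels ranged over libraries from 2.38 to 3.47 for arginine and from 51.9 to 58.0 for methionine. The annotated exons of Mars2 are 11294 bases long, which lowers its level per kilobase. The exception was leucine, where the ratio of Lars to Lars2 lay between 0.0995 and 0.150.

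Lars2, the mitochondrial leucyl enzyme, had 1827, 2157 and 2025 CPM in Piezo1_KO, against 1726, 1687 and 2174 CPM in control. Control replicate 3 was the highest of the 6 libraries, and the groups overlapped (log2 fold change 0.11 ± 0.12, adjusted p = 0.769). Per kilobase Lars2 averaged 514 ± 42.7 in Piezo1_KO and 478 ± 69.5 in control (SD, n = 3 each). The next mitochondrial member was Rars2, the arginyl enzyme, at 18.9 ± 1.07 in Piezo1_KO and 20.8 ± 1.18 in control. In the longest annotated transcript of Lars2, 3894 bases long, 3 of 3845 windows of 50 bases occurred in a transcript of another gene. That gene was Gm15564, which is not among the genes counted. Only exact matches to annotated transcripts were searched, so similar or unannotated sequence would not be found. Whether reads from elsewhere add to the level of Lars2 was not tested.

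Gars, the glycyl enzyme, was the steadiest member, with 498, 517 and 516 CPM in Piezo1_KO and 526, 488 and 501 CPM in control. The groups overlapped, and the log2 fold change was 0.02 ± 0.08 (95% interval −0.17 to 0.20, adjusted p = 0.963). Nars, the asparaginyl enzyme and the cytosolic member closest to Gars in level per kilobase, had 604, 568 and 531 CPM in Piezo1_KO and 594, 629 and 534 CPM in control. Per kilobase, Gars stood at 214 ± 4.43 in Piezo1_KO and 212 ± 8.02 in control, and Nars at 194 ± 12.5 in Piezo1_KO and 200.1 ± 16.4 in control (SD, n = 3 each). The 2 genes did not differ beyond their spread in control, and control replicate 2 had more Nars than Gars. Over the 6 libraries the ratio of the highest to the lowest CPM of a member ran from 1.08 for Gars to 1.49 for Iars among cytosolic members and from 1.20 for Yars2 to 1.88 for Wars2 among mitochondrial ones.

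**Figure D5:**
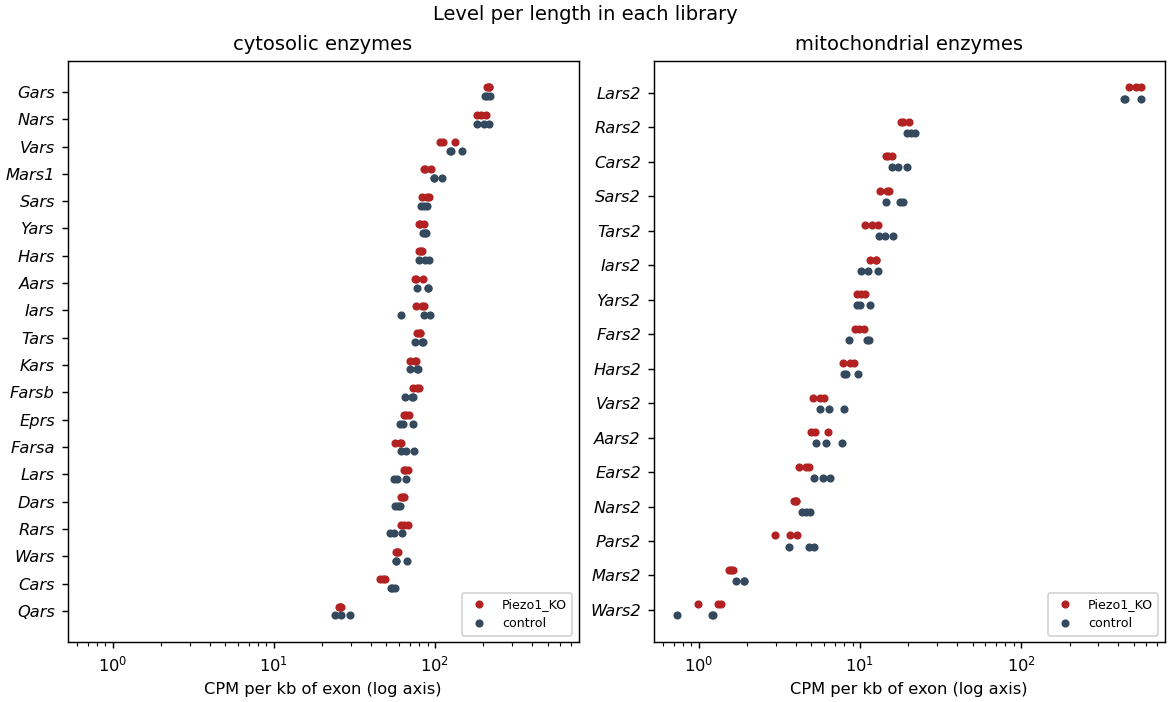
CPM per kilobase of annotated protein-coding exon (x axis, log scale) in each Piezo1_KO and control library (points), for 20 cytosolic (left) and 16 mitochondrial (right) members in order of their mean. Most cytosolic members lie near their median of 77.4, and the mitochondrial members spread from 1.14 for Wars2 to 496 for Lars2, far from the next, Rars2, at 19.9.

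Besides the scaffolds and the ATF4 list, 5 lists of genes for tRNA and translation functions were examined, and 0 of their genes passed the threshold in the edgeR fit. At an unadjusted p under 0.05 there was 1 gene each for other charging and editing (7.14%), tRNA maturation (4.55%) and RNA polymerase III (5.26%), 2 for mitochondrial translation (12.5%) and 0 for the elongation factors, beside 13.2% of all genes. DESeq2 called Aarsd1 and Pus1, where it called 4.20% of all genes, and limma-voom called 0, where it called 3.10%. The medians of these lists lay near 0 and moved with single libraries. Among 14 tested genes for other tRNA charging and editing functions the median log2 fold change was 0.02 (−0.024 without Piezo1_KO replicate 2). The smallest p there belonged to Aarsd1, a hydrolase that clears mischarged tRNAs for alanine, with 53.3, 56.6 and 52.8 CPM in Piezo1_KO and 66.7, 67.0 and 74.5 CPM in control. Its groups did not overlap, and its log2 fold change of −0.36 ± 0.09 had an adjusted p of 0.131 (0.0415 with DESeq2). Prorsd1, whose groups overlapped, stood at 0.38 ± 0.18 (adjusted p = 0.419).

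Among 16 mitochondrial translation factors and tRNA modifiers, the median was 0.0048 (−0.020 to 0.035 when each library was left out) and 0 passed. Pus1, a pseudouridine synthase that modifies tRNAs, had 41.9, 40.5 and 36.8 CPM in Piezo1_KO and 47.4, 57.6 and 54.6 CPM in control. The groups did not overlap (log2 fold change −0.42 ± 0.11, adjusted p = 0.133, and 0.0374 with DESeq2). Nor did they overlap for Gtpbp3, which takes part in modifying mitochondrial tRNAs (−0.33 ± 0.13, adjusted p = 0.329). The 22 tested genes of tRNA maturation and export had a median of 0.06 (0.0047 without control replicate 2). The tRNA splicing gene Tsen54 stood at −0.26 ± 0.11 (adjusted p = 0.361) and the tRNA ligase subunit gene Fam98b at 0.37 ± 0.25 (adjusted p = 0.587). The 19 genes of RNA polymerase III and its factors had a median of −0.05 (0.013 without control replicate 1 and 0.0025 without Piezo1_KO replicate 2), with Gtf3c5 at −0.29 ± 0.10 (adjusted p = 0.247).

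For the 6 cytosolic elongation factor genes the median was 0.08 on the log2 scale (0.0085 without Piezo1_KO replicate 2 and 0.19 without control replicate 3). Eef1a1, which brings charged tRNA to the ribosome, had 2086, 2539 and 2409 CPM in Piezo1_KO and 2018, 1887 and 2229 CPM in control. Control replicate 3 lay above Piezo1_KO replicate 1, and the log2 fold change of 0.20 ± 0.10 had an adjusted p of 0.476. Eef1g stood at 0.16 ± 0.10 (adjusted p = 0.539). All of these adjusted p-values come from the edgeR quasi-likelihood fit of all genes with Benjamini-Hochberg adjustment, and each ± on a log2 fold change is its SE.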

How the data were processed

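RNA of 6 libraries was measured, 3 Piezo1_KO and 3 control, grouped by the genotype label and numbered as in the titles. The authors deposited estimated counts per gene, unscaled, in which 37.9% to 47.4% of the values of a library are not whole. Per the submitters' processing notes the build is mm10. Aligner, counter, annotation and strand setting: not given in the sources used here. Reads that fit near-identical or overlapping genes may therefore be split between them.

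Counts were rounded, filtered with filterByExpr (14149 of 18057 genes kept), scaled by TMM and tested with edgeR 4.0.16 (R 4.3.3; glmQLFit and glmQLFTest, no covariates, two-sided, Benjamini-Hochberg over all genes, threshold 0.05). The biological coefficient of variation was 0.201. CPM values are TMM-scaled. Levels per kilobase use the union of protein-coding exons in GENCODE M21 (GRCm38, the same build as mm10), which also gave the gene positions; promoter windows are from RefSeq GRCm38.p6. For 20 of the 28 member windows the first 30 transcribed bases were found in a transcript of the gene, and for 0 only as the reverse complement. Replicates differed by more than sampling noise, with a chi-square per gene of 11.0 to 61.6 between them.

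Values are printed for the 8 cytosolic and 6 mitochondrial members with the smallest p, the 2 highest per kilobase in each compartment, and from each pathway list the 2 genes with the smallest p. Some genes that this rule names are left out of the text and figures, though they stay in the counts and sums. Dars, Iars and other members beyond this rule were chosen after their values were seen. The members, lists and tests were chosen with earlier results of these data known. Alternatives were RLE size factors, library totals, no filter, a stricter filter (1 CPM), protein-coding genes only, a replicate block, robust quasi-likelihood, DESeq2 1.42.0, limma-voom (limma 3.58.1) with sample quality weights, and leaving out each library.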

Additional observations from a re-analysis of the deposited data

How the results depend on the processing

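Under the 15 alternatives the 37 members gave 555 adjusted p-values, of which 0 were below 0.05; the lowest was 0.139, for Ears2 with limma-voom. At an unadjusted p under 0.05 the count of members, 3 as reported, was 0 to 7 when each library was left out (0 without Piezo1_KO replicates 2 or 3, 7 without control replicate 3). The 7 were 18.9% of the members, beside 19.3% of all genes in that fit. The 0 stood beside 7.47% of all genes without Piezo1_KO replicate 2 and 8.59% without Piezo1_KO replicate 3. The median of the 17 mitochondrial members stayed between −0.25 and −0.17 and 12 to 14 of them were negative in every alternative. The cytosolic median was −0.085 to −0.011 when each library was left out, and −0.085 without control replicate 3. The number of genes called over the whole table depended far more on the processing than these medians: 214 as reported, 392 with protein-coding genes only, 594 with DESeq2, 439 with limma-voom, and 33 to 297 when each library was left out (297 without control replicate 2, 33 without Piezo1_KO replicate 2). Piezo1 passed the threshold with protein-coding genes only (−0.83, adjusted p = 0.0494), DESeq2 (−0.85, 0.00189), limma-voom (−0.93, 0.0157) and without control replicate 3 (−1.05, 0.0163), and ranged from −1.05 to −0.70 when each library was left out. DESeq2 also called Aarsd1 (adjusted p = 0.0415), Pus1 (0.0374) and Vldlr (0.0193), and the fit of protein-coding genes called Vldlr (0.0367). The cause of these differences was not tested.

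Samples that share a replicate number did not deviate together: the correlations of their deviations were −0.0227, −0.183 and −0.00752, and nothing in the labels ties them, so the numbers are not used as pairs. With the replicate number as a block, 52 genes were called over the whole table and the lowest adjusted p of a member was 0.524.

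The sign of 10 members, all near 0 and none called, reversed under some alternative, as did that of the scaffold genes Aimp1 and Aimp2, and 27 members kept theirs. With library totals the log2 fold changes were −0.0094 for Eprs, −0.019 for Gars and −0.0099 for Iars, and with limma-voom they were −0.061 for Eprs, −0.0098 for Gars, −0.019 for Iars, 0.043 for Hars2, 0.041 for Yars2 and 0.034 for Aimp2. With protein-coding genes only Tars stood at 0.00182. When each library was left out, the ranges were −0.033 to 0.10 for Eprs, −0.19 to 0.025 for Fars2, −0.026 to 0.044 for Gars, −0.072 to 0.066 for Hars2, −0.13 to 0.12 for Iars, −0.092 to 0.0082 for Kars, −0.11 to 0.0012 for Nars, −0.11 to 0.032 for Qars, −0.060 to 0.0070 for Tars, −0.079 to 0.055 for Yars2, −0.037 to 0.33 for Aimp1 and −0.11 to 0.026 for Aimp2. With 3 libraries a group, the members' 95% intervals had a median SE of 0.0994 on the log2 scale, and a difference of that size was not detectable. Larger ones could also fail in the edgeR fit, such as −0.36 ± 0.09 for Aarsd1 and −0.42 ± 0.11 for Pus1 (± SE).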
